A study of Drosophila melanogaster with 2 samples.

Results

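Of 1739 regions bound by dimm-eGFP in whole Drosophila melanogaster embryos, 462 (26.6%, 95% Wilson interval 24.5 to 28.7%) lay at promoters that have no divergent partner. A region was put in this class when its summit, the position of its highest signal, was at most 500 bp from an annotated transcription start site (TSS). It was left out of the class when the TSSs of 2 protein-coding genes, on opposite strands, pointing away from each other and at most 1000 bp apart, both lay within 1000 bp of the summit. The 292 regions left out for that reason are the divergent promoters, and the other 985 regions had no TSS within 500 bp. The class was therefore 61.3% of the 754 bound promoter summits.

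The regions came from ChIP-seq with an antibody to GFP on transgenic embryos that express a fusion of dimm with eGFP. The embryos were 0 to 24 hours old and were taken whole, so every embryonic tissue was mixed. The series has 1 group of 2 biological replicates, both of the dimm-GFP strain, and no second condition. Neither the promoter that drives the fusion nor the level of the tagged protein is given in the sources used here. A peak list holds no expression values, so the tissue could not be checked against markers.

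The protein dimm is a basic helix-loop-helix (bHLH) factor known for switching on the secretory programme of peptidergic neuroendocrine cells, and bHLH factors bind E-boxes, CANNTG. The E-box tied to dimm is the palindrome CATATG. A promoter is the stretch around a TSS where transcription starts. In the compact fly genome many genes share one such stretch with a neighbour on the opposite strand. The promoters described here have no divergent protein-coding pair within the limits given above.

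The bases under the summits were rich in A and T, and the sequences at the summits of strong regions are shown so that this can be seen directly. Each is the 101 bp around the summit on build dm6, read 5′ to 3′ on the strand of the nearest gene, and the copies of the 6-mer TTAAAA or its reverse complement TTTTAA are in capitals. They were drawn from the 288 regions on 2L, 3L, 3R and X whose window held no annotated exon. The first 6 are the strongest of these, and CG14100, ph-p and CG18549 were also the 3 strongest of all 462.
CG14100, chr3L:19590566-19590666, minus strand: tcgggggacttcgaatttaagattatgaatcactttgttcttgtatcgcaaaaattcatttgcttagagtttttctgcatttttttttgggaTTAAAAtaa
ph-p, chrX:2137303-2137403, minus strand: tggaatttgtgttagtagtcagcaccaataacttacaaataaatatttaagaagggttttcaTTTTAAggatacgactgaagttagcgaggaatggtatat
CG18549, chr3R:12449119-12449219, plus strand: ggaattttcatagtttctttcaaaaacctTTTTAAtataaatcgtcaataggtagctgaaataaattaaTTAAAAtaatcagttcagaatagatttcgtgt
RluA-1, chr2L:10474476-10474576, minus strand: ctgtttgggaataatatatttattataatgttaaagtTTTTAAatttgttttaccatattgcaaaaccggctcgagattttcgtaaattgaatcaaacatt
CG1635, chr3R:31588490-31588590, plus strand: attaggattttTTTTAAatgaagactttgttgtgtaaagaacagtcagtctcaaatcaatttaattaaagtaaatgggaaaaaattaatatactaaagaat
MFS18, chr2L:4448654-4448754, minus strand: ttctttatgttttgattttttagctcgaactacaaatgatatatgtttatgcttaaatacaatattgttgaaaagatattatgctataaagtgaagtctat
The G+C content of these 6 windows ran from 21.8% at CG1635 to 31.7% at ph-p, and MFS18 had no copy of TTAAAA.

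The G+C content of the 462 summit windows ran from 13.9% to 69.3%. The window with the lowest G+C among these 288, at the arginine kinase gene Argk1, was 16.8% G+C, and the highest, at the topoisomerase gene Top1, was 61.4% G+C.
Argk1, chr3L:9057872-9057972, minus strand: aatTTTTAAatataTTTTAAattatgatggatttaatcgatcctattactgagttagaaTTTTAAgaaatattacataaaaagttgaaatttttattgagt
Top1, chrX:15323326-15323426, plus strand: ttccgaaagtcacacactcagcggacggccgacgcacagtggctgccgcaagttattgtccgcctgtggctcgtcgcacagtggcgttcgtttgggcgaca
Their signal values were close, 119 for Argk1 and 126 for Top1. The signal value is the authors' own number for a peak, with a normalization that is not stated, and it is used here to rank and describe peaks.

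The dimm E-box was present under few summits, and the strongest regions with it are shown for that reason, with CATATG in capitals.
Rtnl1, chr2L:4997601-4997701, minus strand: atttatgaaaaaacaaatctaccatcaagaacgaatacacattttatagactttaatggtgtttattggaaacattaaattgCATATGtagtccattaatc
osp, chr2L:14689469-14689569, minus strand: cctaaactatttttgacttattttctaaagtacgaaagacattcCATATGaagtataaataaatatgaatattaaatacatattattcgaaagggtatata
CG1607, chr3R:31384204-31384304, plus strand: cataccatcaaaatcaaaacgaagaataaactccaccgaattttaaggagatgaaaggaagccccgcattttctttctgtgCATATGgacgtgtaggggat
Across all 462 windows, 19 (4.11%, 2.65 to 6.33%) held CATATG. The windows 500 bp upstream held it in 3.90% and those 500 bp downstream in 3.90%. It was under 1.03% of divergent summits and in 3.17% of windows placed 168 bp upstream of the start of every protein-coding gene without a divergent partner. The share at the summits was thus close to that beside them, and in the replicates' own lists it was 4.48% and 3.75% (4.11% ± 0.517, SD, n = 2).

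Summits sat upstream of the start. The median position was 168 bp upstream of the nearest TSS, with quartiles at 262 and 73 bp upstream. Of the 462 summits, 382 were upstream (82.7%, 79.0 to 85.9%), and 234 (50.6%) lay 100 to 300 bp upstream. Replicate 1's own list had 335 such promoters with 81.8% of summits upstream, and replicate 2's had 347 with 81.3%. The median distance in either direction was 199 bp and 200 bp in these lists, against 198 bp in the main list.

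**Figure D1:**
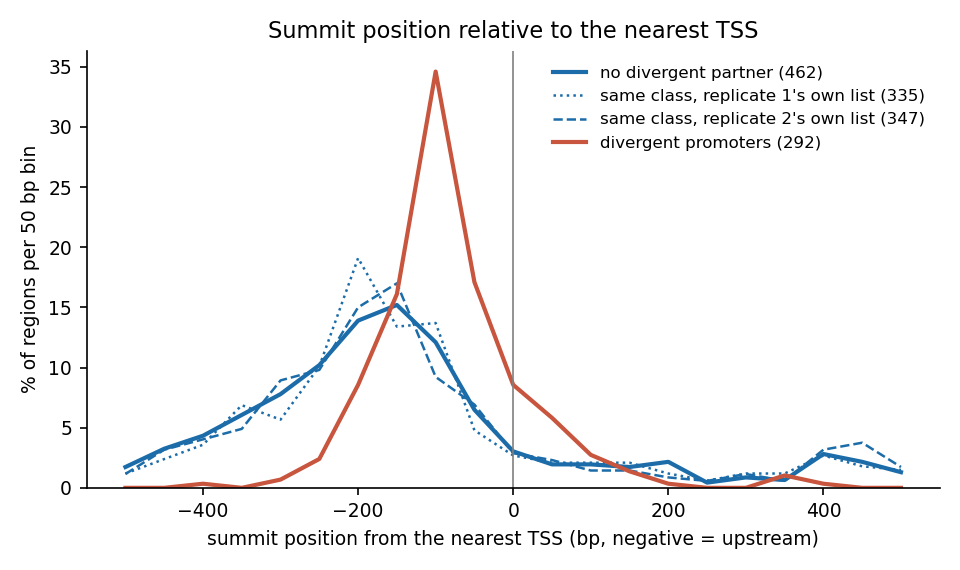
Share of summits (%, y axis) in 50 bp bins by position from the nearest TSS (bp, x axis, negative is upstream), for the 462 promoters without a divergent partner, the same class in each replicate's own list, and the 292 divergent promoters; the bins at both ends are cut at 500 bp. The class without a partner peaked at 15.2% in the bin at 150 bp upstream, and divergent promoters had a narrower peak nearer the TSS.

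Divergent promoters were bound closer to the start. Their median distance was 96.0 bp, and 52.4% of their summits were within 100 bp of a TSS, against 16.7% where there was no partner. This difference was not tested, and a second TSS on the other side makes a short distance to the nearest one likelier by construction. The highest median signal among summits without a partner, 119, was found 100 to 200 bp upstream, and the lowest, 85.3, from 100 bp upstream to the TSS.

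Most summits were outside exons. Of the 462, 208 (45.0%) were intergenic, 180 (39.0%) were in an intron, 43 (9.31%) in an untranslated part of a coding gene, 24 (5.19%) in an exon of a noncoding gene and 7 (1.52%) in a coding exon. All 7 in coding exons had signal values of 65.2 or less and none was in both replicates' own lists. The other classes had medians from 103 in intergenic summits to 133 in noncoding exons.

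For 158 of the regions (34.2%) the nearest TSS was not the first TSS of its gene but an internal one, and 128 of these lay more than 1 kb into the gene. Internal and first TSSs had similar medians, 111 and 105. They also had similar shares in both replicates' own lists, 55.1% and 54.9%. The nearest TSS belonged to a protein-coding gene in 403 regions, to a gene of the broad noncoding RNA class in 55, to a tRNA gene in 2, and to a snoRNA and a snRNA gene in 1 each. Of the 462 regions, 24 (5.19%) had a noncoding gene as divergent partner, which the class allows.

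The replicates gave these promoters similar signal, in a list that keeps peaks whose ranks agree between the replicates, so this agreement is in part fixed by how the list was made. Both replicates had a value at 453 of the 462, and 442 of these (97.6%) were within 2-fold of each other. Across these regions, which share the same libraries, Spearman's rho was 0.80, and Pearson's r of the log2 values was 0.867. The signal in the main list was close to the sum of both replicates' own values, with a median ratio of 1.00 and quartiles of 0.974 and 1.02. The main signal therefore does not count as a measurement beside the replicates' own.

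**Figure D2:**
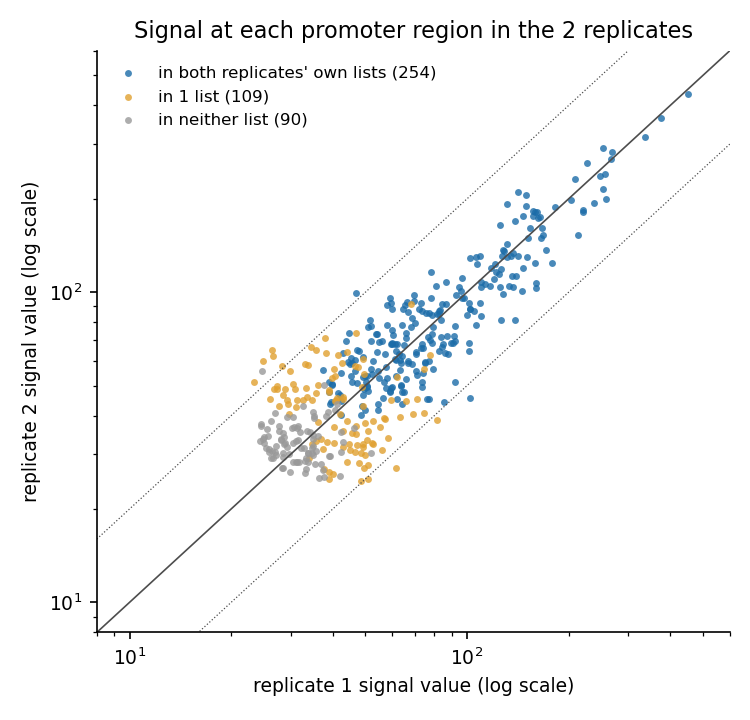
Authors' signal value in replicate 1 (x axis) and replicate 2 (y axis), both on log scales, one point for each of the 453 promoter regions with both values; the solid line is equality and the dotted lines are 2-fold. Points are coloured by whether the region is in both replicates' own thresholded lists, in 1 or in neither; 11 points lie outside the dotted lines.

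Membership in the replicates' own thresholded lists followed the signal, which is fixed in large part because the main signal is close to the sum of the replicates' values. In all, 254 (55.0%, 50.4 to 59.5%) were in both, 56 only in replicate 1's, 57 only in replicate 2's and 95 in neither. Of the strongest 116, 114 were in both lists (93.9 to 99.5%), and of the weakest 116, with signal from 25 to 75.6, 0 were (up to 3.21%). Divergent promoters were alike, with 57.9% in both lists (52.1 to 63.4%). Results on weak regions thus rest on the comparison of the ranks of both replicates and not on either replicate alone.

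Signal ranged from 25 to 888 with a median of 107 and quartiles of 75.6 and 159. The median was 107 for divergent promoters and 83.0 for regions away from any TSS. Of the strongest 100 regions of the series, 37 were promoters without a partner and 31 were divergent. In the replicates' own lists the medians were 64.2 and 66.8 without a partner (65.5 ± 1.84, SD, n = 2), against 65.9 and 65.2 for divergent promoters. The 2 kinds of promoter differed by less than the spread between the replicates.

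CG14100 had the strongest region, at chr3L:19590495-19590740, with a signal of 888 in the main list, 452 in replicate 1 and 435 in replicate 2, 92 bp upstream of its TSS. Next was ph-p, which encodes the polyhomeotic subunit of a Polycomb repressive complex, at chrX:2137243-2137477. Its values were 740, 375 and 364, and its summit was in an intron, 498 bp upstream of an internal TSS. A second region of ph-p had a signal of 307. CG18549, at chr3R:12449061-12449272, had 660, 337 and 316, with the summit 127 bp upstream. Both replicates ranked these 3 regions high and with nearly equal values.

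Several of the 25 strongest regions were at genes of the secretory route and of membrane transport. Fkbp14, a prolyl isomerase of the endoplasmic reticulum (ER), had a signal of 550 with 268 in replicate 1 and 282 in replicate 2. Rtnl1, a reticulon that shapes ER tubules, had 407 with 220 and 181. TRAM, a membrane protein of the ER translocon, had 340 with 157 and 182. These genes were picked out of the 25 after their values were seen, and no test was made on them as a group. MFS10 and MFS18, transporters of the major facilitator superfamily, had 463 and 410.

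Regulatory genes were also among the 25. Sox14, an HMG-box transcription factor, had a signal of 391 with 203 and 198 in the replicates. For msi, which encodes the RNA-binding protein Musashi of neural precursors, it was 365, with 213 and 153. Btk, a Tec-family tyrosine kinase, had 347 with 142 and 210, and Ptpmeg2, a protein tyrosine phosphatase, had 339 with 159 and 181. The replicates differed more at msi and Btk than at Sox14, and in opposite directions.

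The rest of the 25 were CG1888 (signal 552), px, a gene of wing vein patterning (534), Tina-1 (495), the pseudouridine synthase gene RluA-1 (490), the glutathione transferase gene GstE13 (467), CG1635 (439), CG13921 (373), CG31886 (349), CG13501 (343) and the noncoding genes lncRNA:CR44339 (483), lncRNA:CR44619 (415 and 346, at 2 regions) and lncRNA:CR31044 (342). All 25 were in both replicates' own lists. Their summits ranged from 498 bp upstream of a TSS at ph-p to 485 bp downstream at lncRNA:CR44619.

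Some genes carried several such promoters. The 462 regions had 441 distinct nearest genes, and 17 genes were nearest to 2 or more. Rtnl1 had 4, with signals of 407, 201, 111 and 65.6, all in introns and 207 to 377 bp upstream of an internal TSS. Ptpmeg2 had 3 (339, 235 and 112), and so did dnc, the cAMP phosphodiesterase gene dunce known from learning mutants (188, 134 and 61.5). Within each of these genes the strongest region exceeded the weakest by more than the 2-fold bounds that held 97.6% of replicate pairs.

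Near the limits of the class, the regions just inside the 500 bp limit were those of Synd at 499 bp (signal 73.8), ph-p at 498 bp (740) and CG3630 at 497 bp (79.5). Just outside were Gs2 at 503 bp (113), cic at 503 bp (64.4) and Fbl6 at 506 bp (147). On the limit for divergent pairs, CG11961, Droj2 and Nrx-1 kept their place with partners 1007, 1013 and 1024 bp away. Ank2, chb and CG4860 were placed with the divergent promoters, with partners 955, 923 and 923 bp away.

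The dip in G+C was centred on the summit. The mean over the 101 bp windows was 33.0% at summits, 40.1% at 500 bp upstream and 45.4% at 500 bp downstream, and 325 of 462 summits (70.3%) were lower than their own upstream window. The mean was 31.1% at divergent summits and 34.8% at regions away from any TSS. Windows 168 bp upstream of all genes without a partner had 37.2%, but these sat at a fixed distance and were not centred on a summit. At that same distance the mean was 35.9% for bound genes and 37.3% for unbound ones. The strongest 116 summits had a median of 29.7%, against 36.1% in the weakest 116. Across regions the rank correlation of signal with G+C was −0.269, and it was −0.122 and −0.189 in the replicates' own lists, as a description only.

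**Figure D3:**
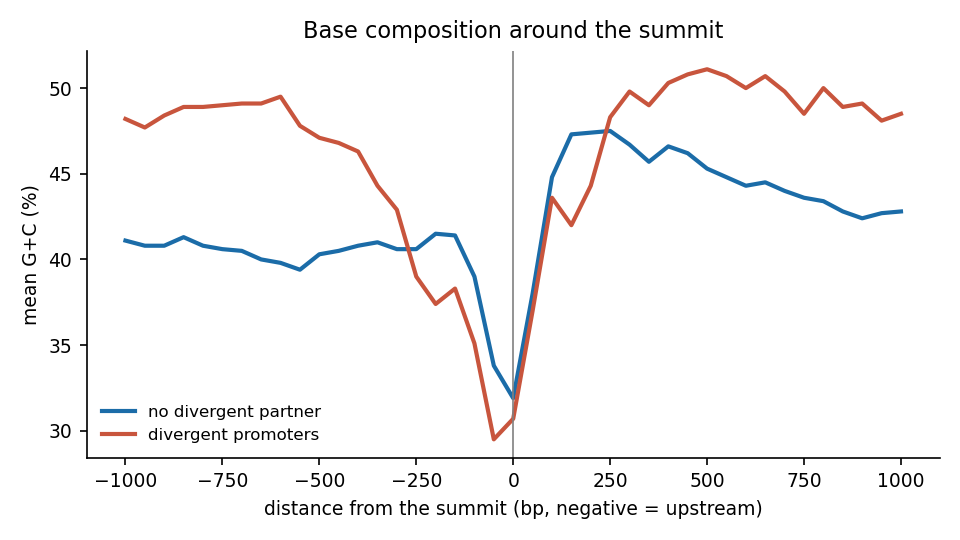
Mean G+C content (%, y axis, not starting at 0) by distance from the summit (bp, x axis, negative is upstream of the nearest gene) for the 462 promoters without a divergent partner and the 292 divergent promoters. G+C without a partner fell from 41.4% at 150 bp upstream to 31.9% at the summit and was 47.3% at 150 bp downstream.

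A scan of all 2080 classes of 6-mers (a 6-mer and its reverse complement) compared each summit window with the window 500 bp upstream of it, by an exact two-sided McNemar test with Benjamini-Hochberg adjustment over all classes. It called 32 classes higher at summits (1.54% of those tested) and 7 lower (0.337%), at an adjusted p under 0.05. Of the 32, 21 had no G or C and 11 had 1. There are 36 classes without G or C in all. Of the 32, 21 were also called higher in both replicates' own lists. Since regions of one list are no replicates, the p-values are a description of that list. Mean G+C was 33.0% in the summit windows and 40.1% in the upstream windows, and the part of base composition in these calls was not tested. The scan did not cover divergent summits or unbound promoters, so it does not show that a 6-mer is particular to this class.

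The 6-mers with the smallest p were made of A and T alone. TTAAAA was under 38.3% of summits and in 18.8% of upstream windows (adjusted p = 1.46e-07, exact McNemar test). In the replicates' own lists it was under 41.5% and 40.3% of summits. By the same exact test AAATAT was under 37.2% against 17.3% (adjusted p = 1.46e-07) and AATATA under 27.5% against 11% (adjusted p = 3.55e-07). Next came TAAAAA with 36.6% against 19%, AAAAAT with 41.8% against 25.3% and ATTTAA with 32.3% against 17.5%. TAAATA was under 32.9% against 18.2%, TTTAAA under 23.4% against 11.3% and AATAAA under 34.6% against 20.6%. AACATT, with a single C, was under 18.2% against 7.36%. AACATT was not called in replicate 2's own list, nor AATAAA in replicate 1's.

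All 7 classes that were lower had 3 or more G or C. AGAGCG was under 1.30% of summits and in 6.71% of upstream windows (adjusted p = 0.00409, exact McNemar test), and GAGAGC under 1.30% against 6.06% (adjusted p = 0.0140). CGGAGA was under 0.216% against 3.90%, CCCATC under 0.649% against 4.98% and CGACGA under 0.433% against 3.90%. AGAGCG was the single class called lower in both replicates' own lists as well. No E-box class was called in either direction.

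Motifs of fly core promoters were looked for on both strands. In summit windows they were mostly about as frequent as in windows 168 bp upstream of all genes without a partner. The latter windows leave out the gene start itself. TATAAA, the core of the TATA box, was in 23.4% of summit windows (19.7 to 27.4%), 17.5% of upstream and 9.09% of downstream windows, and 18% of windows 168 bp upstream of all genes without a partner. The DNA replication-related element TATCGATA was in 1.08% of summits (0.741% of all such genes), motif 1 in its form GGTCACAC in 0.433% (0.224%), and motif 6 as GTATNTTT in 4.33% (4.16%). TCAGTT, which marks the initiator, was in 6.93% (6.59%), the Zelda site CAGGTAG in 0.649% (0.651%) and the cAMP response element TGACGTCA in 0.216% (0.135%). A wider window ran from 250 bp before to 50 bp after the gene start. It held motif 1 in 7.54% of the 345 bound genes and 4.58% of all 8916. TATAAA was there in 40% and 44.5%, the reverse of the order in summit windows. The replication-related element was in 5.22% and 5.72%, motif 6 in 13.6% and 12.6%, and TCAGTT in 27.5% and 28.9%. The Zelda site was in 1.45% and 1.9%, and TGACGTCA in 0.87% and 0.437%. None of these differences was tested.

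Any E-box, CANNTG, a pattern that takes in the named forms, was in 32.9% of summit windows, 44.4% of upstream windows and 37.0% of windows before all genes without a partner. CAGCTG was under 2.16% of summits (3.98% of all such genes) and CACGTG under 0.649% (1.08%). Summit windows had the lower share each time, beside a G+C content that was also lower there, and the part of base composition was not tested. For CAGCTG and CACGTG the direction depended on the window, and for CANNTG it did not. CATATG also changed direction, from the higher share at summits, 4.11% against 3.17% of all such genes. From 250 bp before to 50 bp after the gene start, CAGCTG was in 19.4% of bound and 15.2% of all such genes. CACGTG was there in 4.06% and 3.84%, CANNTG in 75.7% and 77.6%, and CATATG in 4.35% and 7.83%. These shares, too, were not tested.

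GA repeats were scarce under the summits, in 1.52% of the 101 bp summit windows. They were in 4.11% of windows 500 bp upstream, but in 1.73% of those 500 bp downstream. Windows 168 bp upstream of all genes without a partner held them in 2.64%. The part of the lower G+C at summits was not tested. The repeat GAGAGAG or its reverse complement CTCTCTC, the letters bound by GAGA factor, was in 21.4% (17.4 to 26.1%) of the promoter windows, 250 bp before to 50 bp after the gene start, of the 345 genes bound at a promoter without a partner. It was in 6.64% (6.13 to 7.19%) of 8571 genes without a partner that were not bound, and in 7.21% of all 8916. By the list of replicate 1 it was in 22.4% of bound genes, and by that of replicate 2 in 21.9%. Among genes of divergent pairs it was in 1.40% of those bound by a divergent region and in 3.75% of the others. The repeat was looked at in this detail after its share was seen, and the binding of GAGA factor was not measured.

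The repeat is printed for the 5 strongest of these promoters on 2L, 3L, 3R and X that were bound at the gene start and in which it lay outside exons, as the 47 bp around it with the repeat in capitals, since these letters carry the contrast.
msi, chr3R:25515994-25516040, plus strand: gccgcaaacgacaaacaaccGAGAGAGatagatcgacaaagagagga
ph-p, chrX:2138491-2138537, minus strand: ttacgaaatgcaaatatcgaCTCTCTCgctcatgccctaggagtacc
CG1907, chr3R:29618914-29618960, plus strand: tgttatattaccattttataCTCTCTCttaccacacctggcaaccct
Hexo2, chrX:8709497-8709543, plus strand: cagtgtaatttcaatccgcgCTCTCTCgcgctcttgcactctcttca
cu, chr3R:11197469-11197515, plus strand: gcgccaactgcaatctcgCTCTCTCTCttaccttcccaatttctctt
In msi the repeat was centred 101 bp before the gene start and the summit lay 194 bp before it. In CG1907 these distances were 128 and 156 bp, in Hexo2 132 and 227 bp, and in the curled gene cu 100 and 275 bp. In ph-p the repeat was centred 143 bp before the start and the summit of its region with signal 307 lay 460 bp past it, so the repeat lay between summit and start in 4 of the 5.

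In 74 bound genes the window around the gene start held the repeat, centred at a median of 86.5 bp before that start (quartiles 122 and 53.5 bp). Of these, 59 were among the 262 genes bound at the gene start itself (22.5%, 17.9 to 28%). The other 15 were among the 83 genes bound at another TSS (18.1%, 11.3 to 27.7%). Around the 462 summits the repeat was in 0.433% of 51 bp windows at the summit itself. It was in 6.06% of those 150 bp upstream and in 4.98% of those 100 bp downstream. Within 250 bp of the summit it was found in 119 regions (25.8%), against 14 of the divergent promoters (4.79%). Both replicates' own lists had the same gap at the summit, with 0 of 335 regions, which allows a share of up to 1.13%, and 0.288%.

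**Figure D4:**
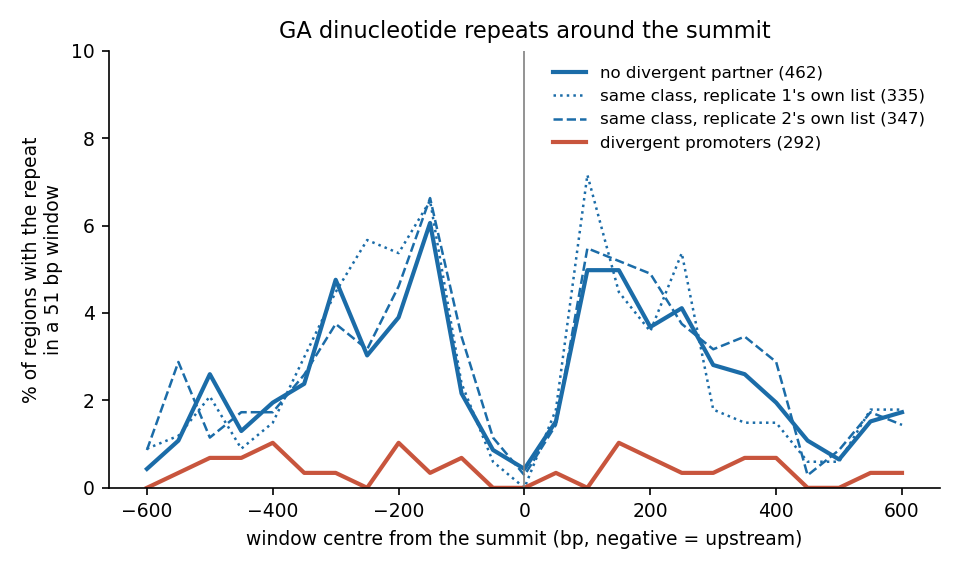
Share of regions (%, y axis) with at least 1 GA repeat of 7 bases in a 51 bp window, by distance of the window's centre from the summit (bp, x axis, negative is upstream), for promoters without a divergent partner in the main list and in each replicate's own list, and for divergent promoters. The share without a partner is 0.433% at the summit and 6.06% at 150 bp upstream, and divergent promoters stay at or under 1.03%.

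The higher share of the repeat was present in each of the subsets of genes without a partner given here. Among genes with 1 TSS, 25.6% (19.5 to 32.8%) of 164 bound and 5.58% of 6650 unbound genes had it, and among those with 2 or more TSSs, 17.7% (12.8 to 23.9%) and 10.3%. In genes spanning under 3 kb it was in 18% of bound and 3% of unbound ones, and in longer genes in 23.1% and 12.9%. On X it was in 20.5% and 6.29%, and on the other chromosomes in 21.7% and 6.70%. These shares were not tested.

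In all, 345 of the 8916 protein-coding genes without a divergent partner had a bound promoter (3.87%, 3.49 to 4.29%), against 2.85% and 3.02% by the replicates' own lists. A further 5052 protein-coding genes belong to a divergent pair, and 54 of these had a TSS within 500 bp of a summit of the class. Far more of the 5052, 571 genes, had a TSS within 500 bp of the summit of a bound divergent promoter. Among genes without a partner, the bound share was 0.852% (0.525 to 1.38%) of those under 1 kb. It was 8.79% (7.14 to 10.8%) of those of 10 to 30 kb and 7.55% (5.59 to 10.1%) of those of 30 kb or more. It was also higher with more TSSs, from 2.41% (2.07 to 2.80%) of genes with 1 to 19.2% (15 to 24.3%) of those with 4 or more. Bound genes had a median span of 5829 bp and unbound ones 2027 bp.

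**Figure D5:**
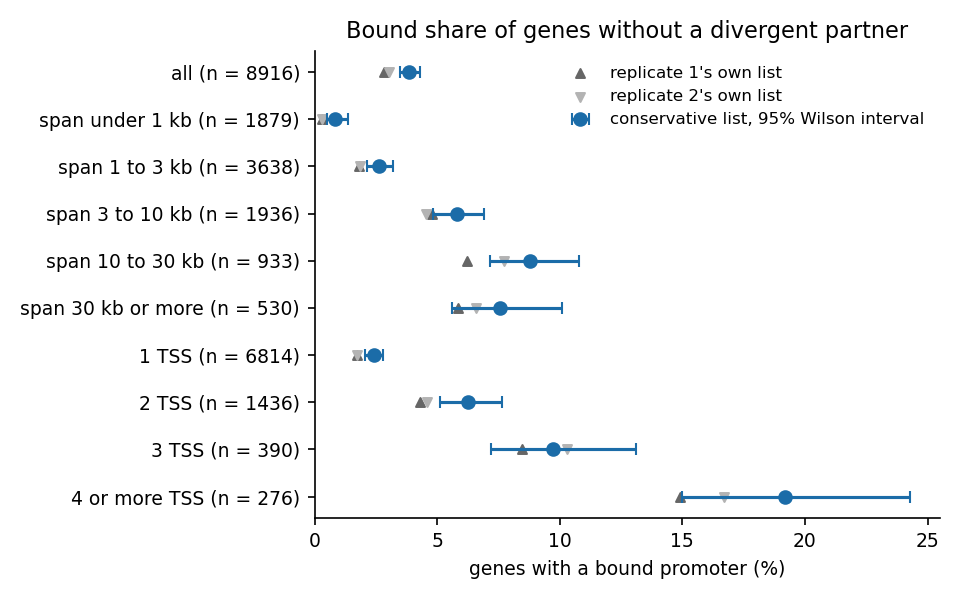
Share of protein-coding genes without a divergent partner that had a bound promoter (%, x axis), by gene span and by number of annotated TSSs (y axis, with the number of genes). Circles are the main list with 95% Wilson intervals, triangles each replicate's own list; the share is 3.87% over all genes and 19.2% for genes with 4 or more TSSs.

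A gene with more TSSs has more places to be counted as bound. Counted by TSS, with TSSs of a gene joined where they were within 100 bp, 2.56% (2.22 to 2.96%) of 7025 were bound in genes with 1 such start and 4.54% (3.99 to 5.16%) of 4826 in genes with several. Within genes of 1 TSS, 1.59% of those under 3 kb and 4.51% of those of 3 kb or more were bound. By the position of the upstream neighbour, 4.10% (3.59 to 4.68%) were bound where it lay in tandem, 4.05% (3.28 to 4.98%) where it lay head to head beyond the limit and 3.01% (2.31 to 3.92%) where the gene started inside another gene. These intervals overlapped, and the difference was not tested.

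By chromosome, the bound share was 5.52% (4.45 to 6.84%) on X. It was 3.46% (2.69 to 4.45%) on 2L, 3.77% (2.99 to 4.75%) on 2R, 3.37% (2.62 to 4.32%) on 3L and 3.74% (3.02 to 4.63%) on 3R. The intervals of 2R and 3R overlapped that of X, and the difference was not tested. X was also highest in both replicates' own lists, at 3.89% and 4.53%. None of the 58 such genes on chromosome 4 (up to 6.21%) and of the 23 on Y (up to 14.3%) was bound. The sex of the embryos was not collected, per the labels, so the dose of X in the sample is unknown.

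The gene that encodes dimm had no candidate region of any rank within 500 bp of its TSSs. Phm, which encodes the amidating enzyme of neuropeptides and is a known dimm target, belongs to a divergent pair and was not bound at these promoters. The strongest of 2 candidates there had a signal of 16.1, under the lowest value of the class, 25.

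Of 498 genes without a partner in 24 lists of functions and tissues, 32 were bound (6.43%), against 3.87% of all. A list is described by its count, and no list was tested. The lists were chosen with earlier results of these data known. The bound share differed by gene span and TSS number, and the list shares were not adjusted for either. The median span of list genes without a partner ran from 0.851 kb for mitochondrial ribosomal proteins to 27.9 kb for the neuronal list. Lists with shares near 3.87%, or with a single bound gene, hold no result about their members.

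The cytoplasmic ribosomal proteins had the most bound genes, 8 of 37 (21.6%, 11.4 to 37.2%), with 6 by the list of replicate 1 and 5 by that of replicate 2. RpL23A had a signal of 152 (84.4 and 66.4 in the replicates), RpL24 131 (62.1 and 67.9), RpL17 89.3 (39.1 and 51.4) and RpL30 86 (50 and 37.9). The first 3 were in both replicates' own lists and RpL30 in replicate 1's. Of the 8 genes, 3 were in both lists, and 2 were left among the stronger 50% of all regions, so most of these ribosomal regions were weak. In the ribosomal genes named here, the summits were close to the start, from 85 bp upstream at RpL23A to 18 bp downstream at RpL30. None was bound of 15 mitochondrial ribosomal protein genes (up to 20.4%), 10 aminoacyl-tRNA synthetase genes (up to 27.8%) and 22 proteasome genes (up to 14.9%), limits that include the 3.87% of all genes.

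Genes of the secretory pathway and of ER stress were bound in 4 of 17 cases (23.5%, 9.56 to 47.3%), against 3.87% of all genes without a partner. Besides TRAM, these were Cnx99A, the lectin chaperone calnexin, with 94.0 (37.4 and 56.1), Xbp1, the transcription factor of the unfolded protein response, with 86.2 (39.5 and 44.2), and deltaCOP, a coatomer subunit, with 68.6 (35.0 and 29.8). The first 3 were in both replicates' own lists and deltaCOP in neither. Of 10 neuropeptide processing genes 2 were bound (20%, with a wide interval of 5.67 to 51%). The prohormone convertase gene amon had 255 (127 and 131), 217 bp upstream of its TSS and in both lists, and the synaptic vesicle GTPase gene Rab3 had 55.9 and was in neither list. Rab3 was also the single bound gene of 17 Rab GTPases.

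Neuropeptide and peptide hormone genes were bound in 2 of 40 cases (5%, 1.38 to 16.5%), a share near the 3.87% of all genes. These were the amnesiac gene amn, a neuropeptide precursor of memory, with 105 (64.0 and 43.6), and Nplp2 with 58.8 (30.6 and 28.3). Of 14 HMG-box genes 3 were bound (21.4%, 7.57 to 47.6%). After Sox14 came bbx with 187 (105 and 86.8) and Sox100B with 56.8 (25.7 and 34.5), and Sox100B was in neither replicate's own list. Of 40 bHLH genes 3 were bound (7.50%, 2.58 to 19.9%), an interval that includes the 3.87% of all genes. They were the Enhancer of split repressors E(spl)m3-HLH with 94.9 and E(spl)m7-HLH with 66.6, both targets of Notch, and the tracheal factor gene trh with 66.4. Of these bHLH genes only E(spl)m3-HLH was in both replicates' own lists.

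The tissue lists and the segmentation and Hox list had 0 to 2 bound genes each, and the interval of each share included the 3.87% of all genes. The neuronal list had elav, an RNA-binding protein of all neurons, as its 1 bound gene of 23, with 220 (139 and 81.2). Of 15 glial genes the 1 bound was moody, a receptor of the glial blood-brain barrier, with 245 (136 and 113). Of 23 muscle genes 2 were bound, the heart homeobox gene tin with 174 (100 and 84.4) and the titin-like sls with 146 (77.8 and 69.9). Of 36 segmentation and Hox genes the 1 bound was bcd with 76.0 (52.4 and 32.6), which was not in replicate 2's own list. Of 15 epidermis genes, 0 were (up to 20.4%).

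The remaining lists held at most 1 bound gene. These were eIF6 of 23 translation initiation factor genes (322), Cyt-c-d of 41 respiratory chain and ATP synthase genes (242), MED4 of 6 Mediator genes (90.6), ph-p of 19 Polycomb and trithorax group genes (740) and row of 12 insulator and architecture genes (117). For eIF6 and MED4 the nearest TSS was that of an antisense RNA gene, and for Cyt-c-d it was that of CG31808. None was bound of 3 nuclear pore (up to 56.1%), 23 basal transcription factor (up to 14.3%), 15 DNA replication (up to 20.4%) and 26 cell cycle genes (up to 12.9%). Of the 345 bound genes, 313 (90.7%) were in none of the lists.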

How the data were processed

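Peak lists of 2 biological replicates of dimm-eGFP ChIP-seq were used. The authors deposited them on build dm6, per the labels, after thresholding by irreproducible discovery rate (IDR), and the signal of each peak is the authors' own value. Its normalization, like the aligner and the peak caller, is not given in the sources used here, and the depth is unknown. Of 1807 peaks in the conservative list, 1770 on the main chromosomes were merged where they overlapped by 1 bp into 1739 regions. TSSs came from Ensembl release 115 (BDGP6.54) without transposable elements and bases from the RefSeq Release 6 genome, in which 99.8% of 30618 start codons read ATG. The scan was first checked on simulated windows with known answers. Of 462 central 31-mers, 0 occurred more than once on the main chromosomes. Intervals are 95% Wilson intervals for counting error. The class, the 24 gene lists and the 12 motifs were chosen with earlier results of these data known. Of the symbols in the lists, 7 had no single match. Genes named in the text were the 25 strongest regions, up to 4 strongest bound genes per list, the 10 higher and 5 lower 6-mers with the smallest p, regions at the limits, dimm and Phm, unless said otherwise. Python 3.11.15, scipy 1.17.1 and pandas 2.3.3 were used.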

Additional observations from a re-analysis of the deposited data

Results flagged for a closer look

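In the list of both replicates, 37 peaks lay on sequences outside the main chromosomes and belong to no comparison made here. They were spread over 35 sequences, with a median signal of 79.9 (45.5 to 527), against 90.6 on the main chromosomes. Replicate 1's own list had 39 such peaks and replicate 2's 15. No control library was used here.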

How the results depend on the processing

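The class held 273 regions among the stronger 50%, and 299 with a limit of 250 bp to the TSS. It was 51.3% of promoter summits at 250 bp, 68.9% at 1000 bp, 68.3% with pairs at most 500 bp apart, 54.0% with pairs up to 2000 bp and 58.1% when noncoding partners counted. In the order list not marked conservative, stronger 50%, 250 bp, 1000 bp, pairs of 500 bp, pairs of 2000 bp and noncoding partners, the median distance was 201, 200, 143, 296, 190, 199 and 202 bp, and the share upstream, for all of these but noncoding partners, was 82.0, 83.9, 86.0, 74.8, 83.9 and 83.0%. In single replicates' lists the distance was 199 to 200 bp, the share upstream 81.3 to 81.8%, and the median signal 64.2 to 66.8 (divergent 65.2 to 65.9), since the main value is close to the sum of both replicates; in the list not marked conservative the medians were 104 and 103. Among the stronger 50%, 87.2% were in both replicates' lists. Genes without a partner were bound in 2.85 to 3.02% (single replicates), 3.99% (list not marked conservative), 2.37% (stronger 50%), 2.66% (250 bp) and 5.22% (1000 bp), and 17 listed genes were bound among the stronger 50%.

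The scan called 52 classes higher with flanks 1000 bp upstream, 161 with flanks 500 bp downstream and 16 with windows of 25 bp to each side. It called 29 lower at 300 bp upstream, 25 at 1000 bp, 188 downstream, 2 with 25 bp and 12 with 100 bp windows, and 8 to 14 in single replicates' lists. Of the 15 named 6-mers, 8 kept their call with 25 bp windows. GAGAGC turned from lower to 0.649 percentage points higher with 100 bp windows (adjusted p = 1, exact McNemar test), and the cause was not tested. Of the other values for single 6-mers, 88 kept their call and 31 lost it. No paired analysis was possible because the series has 1 group. The unknown depth, the lack of a control library and the single antibody limit what the signal shows.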
